A study of Caenorhabditis elegans with 2 samples.

Results

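Translation factors and aminoacyl-tRNA synthetases were examined in a map of LIN-13 binding in the nematode Caenorhabditis elegans. The set comprised the 70 nuclear protein-coding genes, of 19973 in the Ensembl annotation of WBcel235, whose names begin with eif-, eef-, ife- or iff-, or join a letter to ars- and a number. Membership follows from the name alone and uses no binding value, although the set was chosen with earlier results of these data known. The binding data came from chromatin immunoprecipitation followed by sequencing (ChIP-seq), aimed at an EGFP-tagged LIN-13. LIN-13 is a zinc-finger chromatin protein of the synMuv B class, whose members restrain vulval fate. All animals were whole L2 larvae of mixed sex of strain OP49, which carries the unc119(ed3) mutation and the transgene wgIs49, holding lin-13 joined to TY1, EGFP and FLAG tags together with an unc119 copy. They formed 1 group with 2 biological replicates. The design has no second group, and the comparisons below are between genes and between replicates. Whole larvae mix all tissues, and the lists cannot say in which cells a site was bound.

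Translation factors guide the ribosome through each round of protein synthesis. Initiation factors bring the small ribosomal subunit and the initiator tRNA to the start codon, elongation factors deliver each charged tRNA and move the ribosome along, and the aminoacyl-tRNA synthetases load each tRNA with its amino acid. Growing larvae use these proteins in nearly every cell. Many C. elegans transcripts are trans-spliced to a leader or made from operons, so an annotated start can lie downstream of the point where transcription began.

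A gene was scored as having a promoter peak when the summit of a peak in the thresholded list lay between 1000 bp upstream and 200 bp downstream of its outermost annotated start. That list holds 3040 peaks kept after the irreproducible discovery rate (IDR) step, of which 3013 are nuclear, and they are the 3040 entries of highest signal in the list made from the pooled replicates. Each list used for IDR holds 30000 entries. A rank of 1 is the entry of highest deposited signal in its list. No source used here gives the scale of that signal, so ranks are reported, and the depth behind each value is unknown.

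The sequences under the leading peaks are given first. These 8 stretches were chosen to set strong peaks of the elongation and initiation machinery, and the strongest synthetase peak, beside the weakest peak of the set (iff-1) and a synthetase peak of middling rank (kars-1). Each runs from 5′ to 3′ on the strand of its gene within 75 bp of the summit, trimmed where an annotated exon begins, and was read from the RefSeq genome sequence of WBcel235 (the ce11 build). Capitals mark matches on either strand to the short motifs listed further on. They are iff-2 (II:8561368-8561512, minus strand, pooled rank 37), eef-1A.1 (III:6972086-6972166, minus strand, rank 96), eef-1G (V:10965604-10965718, plus strand, rank 104), eef-1A.2 (X:7823229-7823379, plus strand, rank 169), eif-3.B (II:14795086-14795236, plus strand, rank 174), ears-2 (IV:390469-390559, minus strand, rank 189), kars-1 (II:7072694-7072844, minus strand, rank 1812) and iff-1 (III:9747264-9747414, minus strand, rank 3031).
iff-2: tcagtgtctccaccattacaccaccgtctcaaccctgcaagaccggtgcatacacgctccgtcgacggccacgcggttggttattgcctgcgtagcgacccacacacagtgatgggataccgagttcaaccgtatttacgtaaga
eef-1A.1: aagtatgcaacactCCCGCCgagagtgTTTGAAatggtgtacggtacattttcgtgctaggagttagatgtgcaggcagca
eef-1G: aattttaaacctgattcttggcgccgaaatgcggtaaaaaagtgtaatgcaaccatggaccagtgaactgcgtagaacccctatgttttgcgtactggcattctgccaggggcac
eef-1A.2: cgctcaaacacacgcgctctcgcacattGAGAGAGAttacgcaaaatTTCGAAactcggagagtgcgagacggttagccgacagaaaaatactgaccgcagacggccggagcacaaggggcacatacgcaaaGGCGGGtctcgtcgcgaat
eif-3.B: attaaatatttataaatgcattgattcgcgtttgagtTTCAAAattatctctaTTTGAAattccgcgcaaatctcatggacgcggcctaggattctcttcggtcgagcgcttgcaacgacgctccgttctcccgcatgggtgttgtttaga
ears-2: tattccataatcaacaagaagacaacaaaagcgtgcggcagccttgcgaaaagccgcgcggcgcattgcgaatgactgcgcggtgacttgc
kars-1: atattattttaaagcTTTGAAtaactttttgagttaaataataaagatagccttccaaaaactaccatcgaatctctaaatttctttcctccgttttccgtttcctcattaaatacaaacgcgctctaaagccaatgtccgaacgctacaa
iff-1: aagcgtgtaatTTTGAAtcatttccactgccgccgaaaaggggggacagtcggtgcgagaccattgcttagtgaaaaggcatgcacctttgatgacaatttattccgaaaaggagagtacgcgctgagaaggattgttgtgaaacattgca

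Promoter peaks were unevenly spread over the steps of translation. All 6 elongation factor genes and both eIF5A genes had one, as did 14 of 25 initiation factor genes, 2 of 5 cap-binding eIF4E genes and 7 of 32 aminoacyl-tRNA synthetase genes. Together 31 of the 70 genes (44.3%, exact Clopper-Pearson 95% interval 32.4 to 56.7) had a promoter peak, where 2312 of all 19973 nuclear protein-coding genes (11.6%) had one. The intervals are over genes and cover counting error only. No test of the gene set was made, because its members were chosen with results of these data known.

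**Figure D1:**
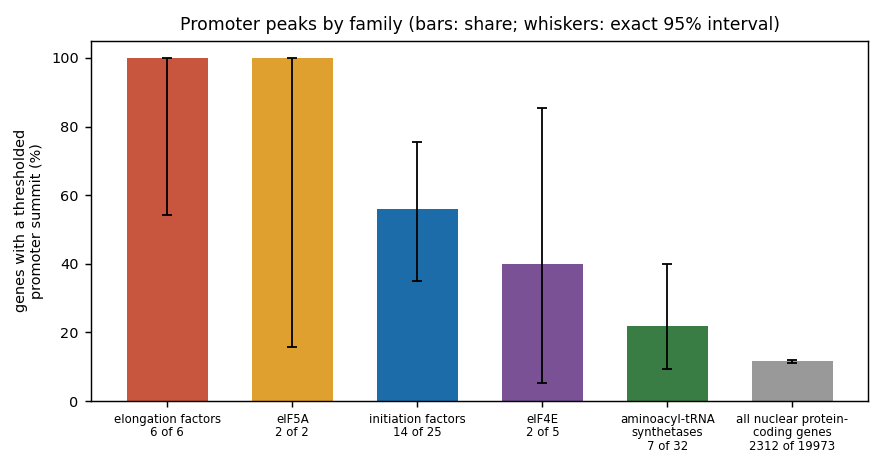
Share of genes with a thresholded promoter summit (vertical axis, percent) for each family and, at the right, for all nuclear protein-coding genes. Bars give the share and whiskers the exact 95% interval over genes. All 6 elongation factor genes had one, and the share was 56.0% for initiation factor genes and 21.9% for synthetase genes, beside 11.6% of all genes.

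The elongation factor peaks were also among the strongest. Their pooled ranks had a median of 147.0, where the 2312 genes with any promoter peak had a median best rank of 1240.5. The initiation factor median was 1261.5 and the synthetase median was 1812.0. Over the whole set, 10 of 70 genes (14.3%) had a peak among the 400 strongest pooled entries, against 2.11% of all genes, a limit chosen after the values were seen. Of these 10 genes, 5 encode elongation factors, 3 initiation factors, 1 eIF5A and 1 a synthetase. As a share of the genes with a peak, 10 of 31 were within this limit, against 421 of 2312 of all genes, and 11 of 31 were within the first 1000 entries, against 975 of 2312. The median rank of all 31 was 1175.0, close to the 1240.5 of all genes with a peak.

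**Figure D2:**
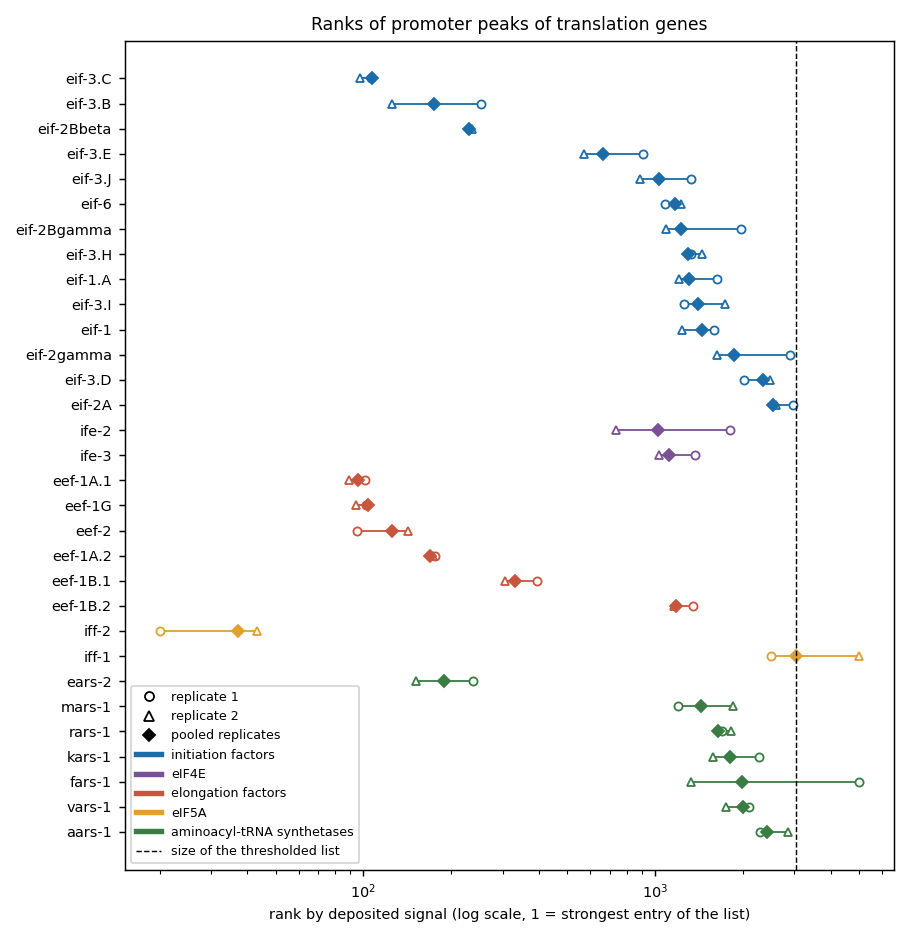
Rank of the strongest promoter peak of each of the 31 genes (horizontal axis, log scale) in replicate 1 (circles), replicate 2 (triangles) and the pooled list (diamonds), by family. The dashed line marks the 3040 entries of the thresholded list. Of the elongation factors, 5 of 6 lie at pooled ranks between 96 and 331, and 6 of the 7 synthetases lie between 1440 and 2427.

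Among the initiation factors, eif-1 and eif-1.A act on the small subunit in start codon selection. The eif-1 peak (II:4993813-4994162) ranked 1593 in replicate 1, 1233 in replicate 2 and 1449 when pooled. Its summit lay 408 bp upstream of eif-1 and 10 bp from the start of vps-24 on the other strand, and also in the window of pigb-1. The eif-1.A peak (IV:4810369-4810718) ranked 1632 in replicate 1, 1206 in replicate 2 and 1304 when pooled, with its summit 390 bp upstream. Both genes thus sat in the middle of the thresholded list in both replicates, and both shared the summit with a neighbour, H06H21.37 in the case of eif-1.A.

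eIF2 carries the initiator tRNA, and of its 3 subunit genes only eif-2gamma (WBGene00021466), the GTP-binding subunit, had a promoter peak. That peak (I:2312993-2313342) ranked 2895 in replicate 1, 1634 in replicate 2 and 1866 when pooled, 103 bp upstream of the start. The regulatory subunit gene eif-2alpha had an entry 37 bp upstream that ranked 3426 in replicate 2 and 8078 when pooled, and no entry of replicate 1 overlapped it. No pooled entry lay in the window of eif-2beta. With the start of any annotated transcript in place of the outermost start, eif-2beta gained a peak. Its nearest thresholded summit lay 778 bp downstream of the outermost start, within the gene.

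eIF2B recharges eIF2 with GTP and is the point at which stress signalling through eIF2 phosphorylation acts. Of its 5 subunit genes, eif-2Bbeta and eif-2Bgamma had promoter peaks. The eif-2Bbeta peak (I:11893789-11893973) ranked 230 in replicate 1, 235 in replicate 2 and 231 when pooled, nearly the same place in each list. Its summit lay 161 bp upstream of eif-2Bbeta and 43 bp from the divergent gene Y47H9C.8. The eif-2Bgamma window held 2 summits, 931 and 714 bp upstream, at pooled ranks 1231 and 1410 (II:6968404-6968753 and II:6968187-6968536). The stronger lay in an intron of C15F1.5, the gene just upstream on the same strand, and both overlapped the same replicate entries, ranked 1975 and 1091. Of the other subunits, eif-2Bdelta ranked 3576 in replicate 1, 2503 in replicate 2 and 4366 when pooled, and eif-2Balpha ranked 17458, 2419 and 4383. The eif-2Bepsilon window held no pooled entry. The eif-2Balpha entry was thus within the 3040 strongest of replicate 2 and far outside those of replicate 1.

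eIF3 is the large scaffold that binds the small subunit, and 7 of its 11 genes in the set had promoter peaks. The core subunit gene eif-3.C (WBGene00001226, I:9979800-9980026) ranked 106 in replicate 1, 97 in replicate 2 and 107 when pooled, 236 bp upstream. Its core partner eif-3.B (WBGene00001225, II:14794977-14795271) ranked 253, 125 and 174 in the same order, 243 bp upstream. Neither summit lay in the window of another protein-coding gene. The eif-3.E peak (I:10642298-10642647) was next, at 911, 569 and 661, with its summit 192 bp upstream and also in the window of B0511.17.

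The other eIF3 peaks were weaker. The eif-3.J peak (I:13434380-13434729) ranked 1328 in replicate 1, 890 in replicate 2 and 1030 when pooled, but its summit lay 934 bp upstream, in a UTR of slc-25A46. The eif-3.H peak (I:4444281-4444630) ranked 1331, 1452 and 1292, and the eif-3.I peak (I:2485459-2485808) ranked 1259, 1735 and 1407. Their summits lay 263 bp upstream of eif-3.H, in the window of the divergent gene C41D11.3, and 227 bp upstream of eif-3.I, in that of abtm-1. The eif-3.D peak (III:8971626-8971975) ranked 2016, 2470 and 2351, and its summit lay 91 bp from the divergent start of R08D7.4 and 223 bp from that of eif-3.D.

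The 4 eIF3 genes without a promoter peak were eif-3.F, eif-3.G, eif-3.K and eif-3.L. The eif-3.G promoter fell just short, with an entry 297 bp upstream at rank 3413 in replicate 1, 3353 in replicate 2 and 3046 when pooled, and the windows of the other 3 held no pooled entry. On the other side of the threshold, the weakest peak of the set was that of iff-1 at pooled rank 3031.

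The remaining initiation factor genes differ in role. eif-6, whose product keeps the large subunit from joining too early, had a peak (I:12968459-12968808) at rank 1078 in replicate 1, 1229 in replicate 2 and 1171 when pooled, 312 bp upstream in a window shared with the proteasome gene pbs-2. eif-2A had a weak peak (pooled rank 2542, 159 bp upstream), and eif-2D, whose window is shared with ndub-5, missed the list with an entry at rank 3165. The eif-4A3 gene, which encodes the helicase of the exon junction complex, had an entry at rank 5952 only.

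The eIF4E proteins bind the cap of the mRNA, and the set holds 5 of their genes. The ife-2 gene had a peak (X:382739-383088) at rank 1803 in replicate 1, 737 in replicate 2 and 1024 when pooled, 205 bp upstream. The ife-3 peak (V:8083-8432) ranked 1371, 1031 and 1113 in the same order, 430 bp upstream. Neither window summit was shared with another gene. ife-4 missed the list at pooled rank 3110 although its replicate 1 entry ranked 2651, ife-5 had an entry at rank 23199, and ife-1 had none.

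The elongation factors carried a peak at every gene. The eEF1A genes encode the protein that brings charged tRNA to the ribosome, and the promoter of eef-1A.1 (WBGene00001168, also known as eft-3) is widely used to drive transgenes in most tissues. Its peak (III:6971979-6972224) ranked 101 in replicate 1, 89 in replicate 2 and 96 when pooled. The summit lay 379 bp upstream of eef-1A.1 and 162 bp from the divergent start of rfc-4, which encodes a subunit of the DNA replication clamp loader. The paralog eef-1A.2 (WBGene00001169, X:7823217-7823408) ranked 176, 173 and 169, with its summit 350 bp upstream and in no other window. Both eEF1A genes were therefore among the 400 strongest entries in each list.

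eEF1B returns eEF1A to its GTP-bound form. The gene of its gamma subunit, eef-1G (WBGene00008920, V:10965579-10965800), ranked 102 in replicate 1, 94 in replicate 2 and 104 when pooled, with its summit 40 bp upstream, between eef-1G and the divergent gene ctf-4. The eef-1B.1 peak (III:7973302-7973462) ranked 395, 306 and 331, and its summit lay 2 bp downstream of the start, in the 5′ UTR, facing aco-2. The eef-1B.2 peak (IV:15037002-15037351) was the weakest of the family at 1352, 1160 and 1175, 154 bp upstream. It is the only elongation factor gene that starts close behind another gene on its strand, 294 bp after the end of fcd-2.

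eEF2 drives the step of the ribosome along the mRNA. The eef-2 peak (WBGene00001167, I:9163410-9163616) ranked 95 in replicate 1, 142 in replicate 2 and 125 when pooled, with its summit 11 bp upstream, in a window shared with the divergent gene clsp-1. Of the 6 elongation factor summits, 4 lay in the window of another gene, and 5 had an elongation factor start as the nearest start. The exception was eef-1A.1. A shared summit cannot be assigned to 1 of the genes, and which gene of such a pair it belongs to was not tested.

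eIF5A helps the ribosome past peptide bonds that form slowly, and both of its paralogs had a peak, at opposite ends of the ranks in the set. The somatic gene iff-2 (WBGene00002065) had the strongest peak of the whole set (II:8561293-8561567), at rank 20 in replicate 1, 43 in replicate 2 and 37 when pooled, with its summit 70 bp upstream and also in the window of the divergent gene F54C9.14. The germline gene iff-1 (WBGene00002064) had the weakest (III:9747164-9747513), at rank 2494 in replicate 1, 4991 in replicate 2 and 3031 when pooled. The iff-1 summit lay 146 bp upstream of iff-1 and 133 bp from the divergent start of the cell cycle kinase gene cdk-1. In the 3040 strongest entries of replicate 2 alone, only iff-2 of this pair kept a peak.

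**Figure D3:**
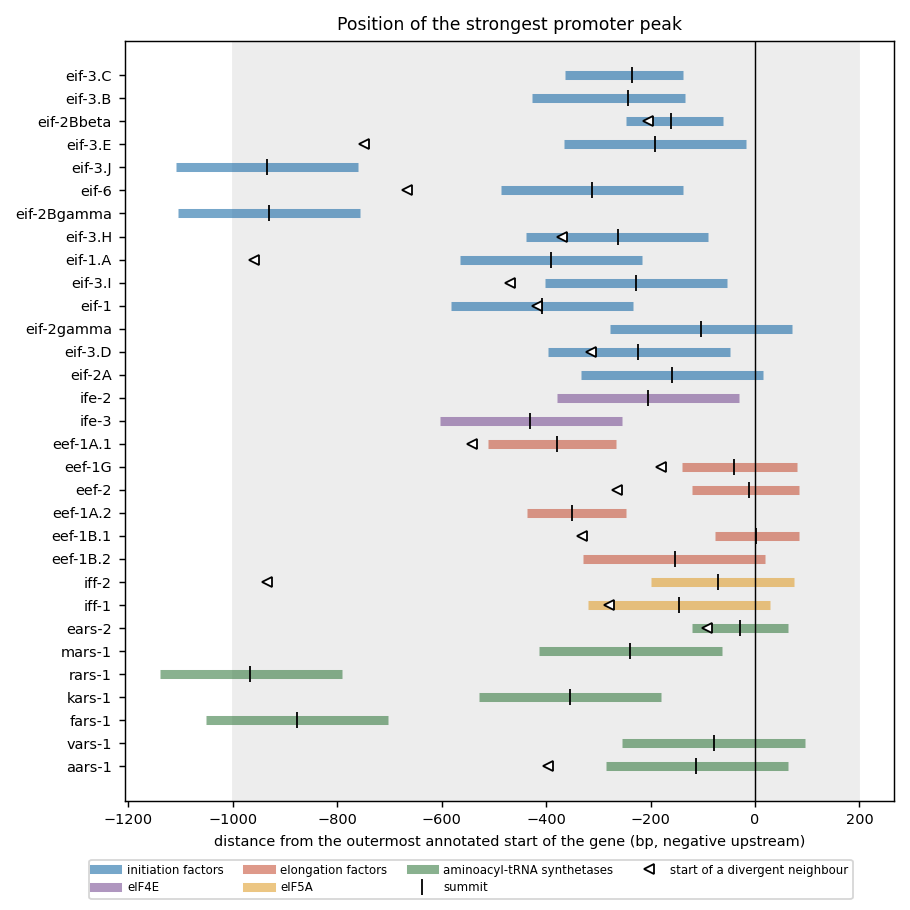
Position of the strongest promoter peak of each of the 31 genes relative to its outermost annotated start (horizontal axis, bp, negative upstream). Coloured bars are peak intervals, ticks are summits, open triangles are starts of divergent neighbours and the shaded band is the promoter window. Most summits lie within 500 bp upstream, and those of eif-3.J, eif-2Bgamma, rars-1 and fars-1 lie from 877 to 966 bp upstream.

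The synthetases were covered thinly. By their names the 32 genes cover 20 amino acids, 7 of which had a so-named gene with a promoter peak. Of the 9 amino acids with a single gene under this naming rule, 3 had one, through kars-1, mars-1 and vars-1. Genes named otherwise are not counted here, among them glp-4, a valyl-tRNA synthetase gene in the RefSeq annotation. Class I and class II enzymes, which differ in the fold of the catalytic domain, gave 4 of 15 and 3 of 17 genes, a split made after the values were seen. The share of genes, 21.9% (exact 95% interval 9.3 to 40.0), lay between that of the whole set and the 11.6% of all genes, and the interval includes the latter value. Among the 1520 strongest peaks alone, 2 of 32 synthetase genes (6.25%) had one, where 6.97% of all genes did. The elongation factors kept 6 of 6 there and the initiation factors 11 of 25.

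The strongest synthetase peak belonged to ears-2 (WBGene00001338), a glutamyl-tRNA synthetase gene. It ranked 237 in replicate 1, 151 in replicate 2 and 189 when pooled (IV:390404-390589). The summit lay 28 bp upstream of ears-2, and the divergent gene uncp-18 starts 92 bp away, so the peak covers both starts. Of the 11 synthetase genes numbered 2 it was the 1 with a peak (9.09%, exact 95% interval 0.2 to 41.3), near the 11.6% of all genes. Of the 20 numbered 1, 6 had one (interval 11.9 to 54.3). The intervals overlap, and the difference was not tested. The next was the methionyl gene mars-1 (IV:11635551-11635900), at 1200, 1843 and 1440, 239 bp upstream and also in the window of F58B3.6.

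The lysyl gene kars-1 (II:7072594-7072943) ranked 2265 in replicate 1, 1586 in replicate 2 and 1812 when pooled, and the valyl gene vars-1 (V:8031157-8031506) ranked 2104, 1748 and 1998. Their summits lay 354 and 79 bp upstream and in no other window. The alanyl gene aars-1 ranked 2281, 2859 and 2427, at a divergent promoter with rga-1. All of these ranks fell within the 3040 strongest of both replicates.

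The remaining peaks lay far from the synthetase start. The arginyl gene rars-1 had its summit 966 bp upstream, beyond the RNA polymerase subunit gene rpb-8, whose start was 135 bp from the summit (III:4917968-4918317, ranks 1693, 1827 and 1646). The phenylalanyl gene fars-1 had its summit 877 bp upstream and 165 bp from the start of rbm-5, in a UTR of T08B2.15 (I:6215387-6215736), at rank 5019 in replicate 1, 1330 in replicate 2 and 1991 when pooled. With a window of 500 bp upstream to 100 bp downstream both were lost, and 5 of 32 synthetase genes kept a peak, against 9.30% of all genes.

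Among the 25 synthetase genes without a promoter peak, some came close. nars-1 ranked 2630 in replicate 1 and 2235 in replicate 2, each inside the 3040 strongest, but 3128 in the pooled list. sars-2 ranked 4821, 2817 and 3393, and cars-1 ranked 5252, 3455 and 3561. Most lay far lower or had nothing: iars-1 (pooled rank 5186), aars-2 (6614), hars-1 (7737) and sars-1 (9744) had entries within the first 10000, nars-2, iars-2, fars-2, pars-1, wars-1, lars-1, tars-1 and qars-1 had entries from 13331 to 29174, and dars-1, dars-2, ears-1, fars-3, gars-1, lars-2, pars-2, rars-2, yars-1 and yars-2 had no pooled entry in the window. Over the whole set, 54 of 70 genes had any pooled entry in the window, against 36.3% of all genes, and 31 of those 54 (57.4%) had a thresholded summit, against 31.8%.

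Most of these peaks stood at similar ranks in the replicates. The 31 genes held 32 summits, of which 30 overlapped an entry among the 3040 strongest of both replicates, against 72.2% of the 3013 nuclear peaks. The 3013 were not limited to promoter windows, so the sets are unlike. The 2 eif-2Bgamma summits overlapped the same replicate entries and were each counted. The exceptions were fars-1, lost from replicate 1, and iff-1, lost from replicate 2. The larger of the replicate ranks exceeded the smaller by a median factor of 1.34 over the 32 summits, with a range from 1.02 to 3.77, and by a median of 1.48 over the nuclear peaks with an entry in both. The 3040 strongest entries of replicate 1 alone put a summit at 32 of the 70 genes (11.5% of all genes), and those of replicate 2 at 35 (11.3% of all genes). The thresholded list was made from these replicates, so the overlap is not independent of it.

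**Figure D4:**
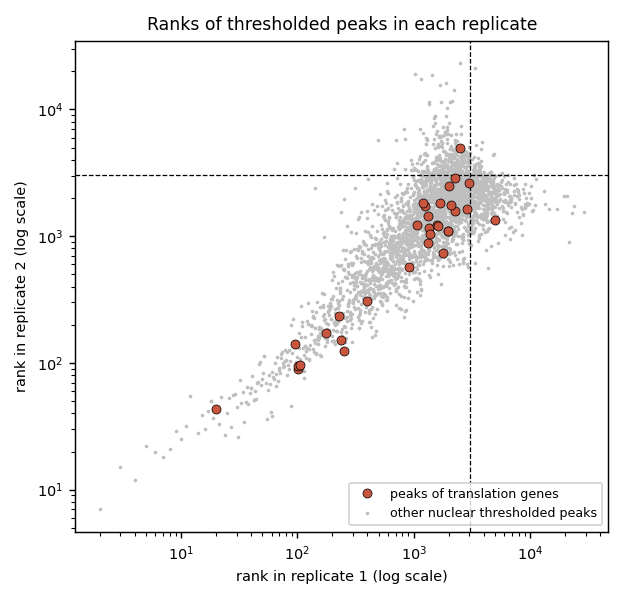
Rank in replicate 1 (horizontal axis) and replicate 2 (vertical axis), both on log scales, of the nuclear thresholded peaks with an entry in both. These are 2978 of 3013, with the 32 summits of translation genes in red and the others in grey. Dashed lines mark rank 3040. Of the red points 30 lie inside both lines, and the exceptions are fars-1 and iff-1.

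The scoring window limited how far a summit could lie from the start. Within it, the median distance was 227.0 bp upstream for the 31 genes, close to the 236.0 bp for all genes with a promoter peak. Of the 31, 26 lay within 500 bp upstream, 4 farther upstream and 1, that of eef-1B.1, downstream. The summit lay in the window of another protein-coding gene for 19 of 31, and of 2312 genes with a peak 1236 shared theirs. When each summit counted only for the gene with the nearest start, 23 of the 70 genes (32.9%) kept a peak, against 8.36% of all genes. The genes lost were eef-1A.1, eif-1, eif-2Bbeta, eif-3.D, eif-3.H, fars-1, iff-1 and rars-1.

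The layout upstream of these genes differed from that of the genome at large. A divergent gene started within 1000 bp for 30 of 70 (42.9%), against 17.7% of all protein-coding genes. Genes with such a divergent start were placed in that layout first. Without one, a gene on the same strand ended within 500 bp upstream for 18 of 70 (25.7%), against 17.9%. At divergent promoters 16 of 30 translation genes had a peak (53.3%), against 1061 of 3539 such genes overall. Behind a close same-strand gene 6 of 18 had one (33.3%), against 8.69%, and with neither neighbour 9 of 22 did (40.9%), against 7.31%. The share was thus above that of all genes in each layout, although none of these differences was tested.

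**Figure D5:**
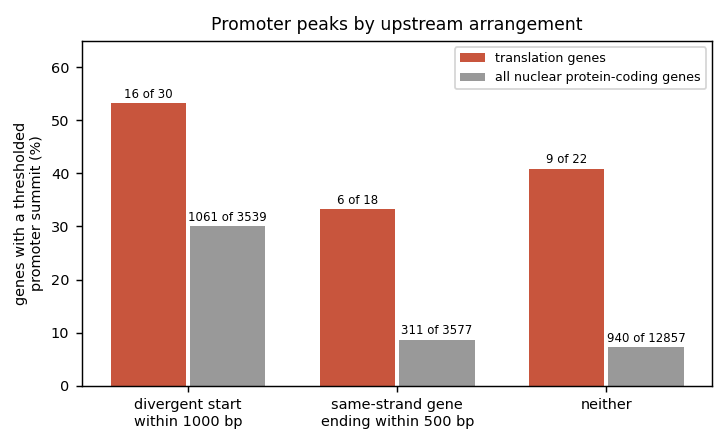
Share of genes with a thresholded promoter summit (vertical axis, percent) by the layout upstream of the start, for translation genes (red) and all nuclear protein-coding genes (grey), with counts above the bars. The red bar is the higher in all 3 layouts, at 53.3%, 33.3% and 40.9%.

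Of the synthetase genes, 11 followed closely behind another gene on their strand, and 2 of these had a summit in their own window, vars-1 and rars-1. For genes in such runs the promoter of the first gene of the run was also examined, a step chosen after the values were seen. It carried a peak for 5 genes that had none in their own window. Of these, eif-2alpha lies directly behind the prohibitin gene phb-1 (pooled rank 892) and lars-2 directly behind ZK524.4 (rank 1353). The others lie farther along their runs. The run of gars-1 begins with the splicing gene prp-19 (rank 191), that of dars-2 with F10C2.4 (rank 1685) and that of eif-3.F with egli-1 (rank 2338). Conversely eef-1B.2, eif-2gamma, rars-1 and vars-1 had a peak in their own window and none at the first gene. Both windows held a peak for eif-3.C and eif-2Bgamma. The rars-1 summit, however, lay 966 bp upstream and 135 bp from the start of rpb-8, the gene just ahead on its strand. The eif-2Bgamma summits lay 931 and 714 bp upstream, the stronger in an intron of C15F1.5. Counting the first gene of the run gave 32 of 70 (45.7%), against 14.3% of all genes. Spacing alone does not show that genes share a transcript.

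Short motifs were counted on both strands within 75 bp of the 32 summits, in windows of 151 bp. Windows can hold several motifs, and each motif was counted by itself. In the stretches printed above, those of iff-2, eef-1G and ears-2 held none. The CHR-type hexamer TTTGAA, an element linked to the DREAM complex, was in 12 of 32 windows (37.5%), 28.0% of the 3013 nuclear summits and 40.4% of the 151 bp before all protein-coding starts. Its variant TTCGAA was in 1, the one at eef-1A.2 printed above, against 10.1% and 9.32%. CCCGCC was in 4 (12.5%), at eef-1A.1, eef-1A.2, eif-1.A and eif-2Bgamma, against 241 of 3013 summits and 3.76% of starts. GAGAGA was in 5 of 32 windows (15.6%), against 35.7% and 12.9%. CTGCGTCT was in 1, at aars-1, against 13.4% and 2.02%, and TTTTTTTT in 1, at eif-2A, against 9.39% and 21.0%. The E-box CACGTG was in 0 of 32, against 5.38% and 3.45%. For a count of 0 the upper limit was taken as 3 windows, here 9.38%, an approximate bound and not an exact interval. TGATGNAA, the amino acid response type of element that mammalian ATF4 binds, was also in 0 of 32 windows, with the same approximate limit of 9.38%, against 3.02% and 3.85%. In the 151 bp before the starts of the 39 genes of the set without a promoter peak, TGATGNAA was in 4 (10.3%) and TTTGAA in 15 (38.5%). Windows around summits and windows before starts are at different places, and a match is a string of letters only. The median GC content of the 32 windows was 43.0%, and 43.7% for all nuclear summits.

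Genes by chromosome gave 10 of 21 with a peak on I (16.3% of all genes there), 7 of 16 on II (10.7%), 5 of 12 on III (18.8%), 4 of 10 on IV (11.1%), 3 of 8 on V (7.53%) and 2 of 3 on X (8.75%). The share was above that of all genes on each chromosome, and none of these was tested.

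Other genes of translation whose names fall outside the rule were read in the same way. A list of 35 names, chosen with earlier results of these data known, matched 23 such genes. Of these 11 (47.8%) had a promoter peak, against 11.6% of all nuclear protein-coding genes, a difference that was not tested. The strongest was that of ifet-1, a translational repressor that binds eIF4E, at rank 22 in replicate 1, 54 in replicate 2 and 43 when pooled, in a window shared with the ribosomal protein gene rps-1. clu-1 (pooled rank 286, shared with prp-40) and gcn-1 (rank 456), which acts with the eIF2 kinase GCN2, followed. The mitochondrial elongation factor genes tufm-2 (rank 842, shared with exoc-7) and tufm-1 (rank 947), the release factor genes erfa-3 (rank 1749, shared with math-33) and erfa-1 (rank 2329, shared with gad-1), the eIF4A gene inf-1 (rank 2175), the poly(A)-binding gene pab-2 (rank 2285), the stress factor gene atf-4 (rank 2079, shared with a gene that has no name) and the eIF2 kinase gene pek-1 (rank 2601) had weaker peaks. In replicate 1 and replicate 2, erfa-1 ranked 6274 and 1556, and atf-4 ranked 1132 and 6964. In the same order, inf-1 ranked 4686 and 1733, pab-2 ranked 3690 and 2429, and pek-1 ranked 3237 and 2777. At these genes the larger rank exceeded the number of peaks in the thresholded list. At the other genes with a peak in this list of names, neither rank did. No thresholded summit lay at ifg-1 (pooled rank 3565), abce-1 (3160), glp-4 (5181) or egl-45 (6909), and pab-1, tsfm-1, gfm-1, mrrf-1, gcn-2, rsks-1, let-363 and daf-15 had no pooled entry in the window. The other 12 names matched no current gene name in the annotation used, and some may be older names of genes already in the set.

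Beside the translation factors, 30 of 31 genes named rps- (96.8%) and 37 of 47 named rpl- (78.7%) had a promoter peak, with median pooled ranks of 296.5 and 335.0. Genes of the mitochondrial ribosome had one at 28 of 70 (40.0%), with a median rank of 1297.0. The differences between these groups and the translation factors were not tested.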

How the data were processed

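The samples were 2 biological replicates of LIN-13 ChIP-seq, with a size range of 150 to 350 bp per the labels. Per the deposited file listings, entries were listed for each replicate and for the pooled replicates as IDR input, and the IDR step on these gave the thresholded list. The authors' deposited signal per entry, of unstated scale, served to order the entries of each list. The deposited −log10 q value was not used for selection. The aligner, the peak caller and the IDR cut-off were not given in the sources used here. The lists hold no read counts, so depth is unknown. The control experiment and the ce10 lists were not analysed here.

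Gene starts came from Ensembl release 115 (WBcel235, ce11). Replicate ranks are those of the best entry overlapping a peak by at least 1 bp. Coordinates are 1-based. Every gene of the set is named or counted, with full values for the 25 best ranked and all eIF2, eIF3 and eEF1 peaks. Members and lists were chosen with earlier results of these data known. Window assignment was checked on 200 genes given artificial summits, and 200 were recovered. Alternatives were the 1520 strongest peaks, each replicate alone, other windows, starts and overlaps, and, added after the data were seen, the first gene of a same-strand run. Python 3.11.15, numpy 2.4.6, scipy 1.17.1 and matplotlib 3.10.9 were used.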

Additional observations from a re-analysis of the deposited data

How the results depend on the processing

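The count of 31 genes with a promoter peak ranged from 22 to 35 over the alternatives run. With the 1520 strongest peaks, 22 of 70 kept one (31.4%, against 6.97% of all genes), synthetases fell to 2 of 32 and eIF5A to 1 of 2, and the median rank was 842.5, against 672.0 for all genes with a peak. The main median was 1175.0, against 1240.5. The entries of replicate 2 alone gave a median of 1229.0, against 1190.5, and those of replicate 1 alone 1341.5, against 1218.0, with eIF5A counts of 1 and 2. Under these 3 alternatives the set ranked lower than all genes with a peak, so no difference in median rank is reported. With the nearest start only, eIF5A had 1 peak. The elongation factor count was 5 or 6, the initiation factor count 10 to 16 and the eIF4E count 2 or 3 under the alternatives run for them. Synthetases otherwise ranged from 5 to 10. The cause of the remaining shifts was not tested. No paired analysis was possible because the design has 1 group. Depth is unknown, so a gene without a listed entry cannot be told from one below detection. Windows shared by neighbouring genes limit which gene a summit belongs to.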
